A study of Daphnia magna with 16 samples.

Results

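The probes of phospholipase A2 (CUST_89819_PI429715507, gene model Dapma7bEVm029599) and of the ELOVL fatty acid elongase 4, called ELOVL4 here (CUST_24704_PI429715507, gene model Dapma7bEVm006061), are 2 of the 51424 gene probes on an Agilent array for the water flea *Daphnia magna*. They were taken by their probe names, and the study had listed both as lower in the mutants on these same arrays. Both were among the 17286 probes bright enough to be tested. Each probe had 1 spot per array. Each of the 16 arrays was hybridised with RNA from the whole body of a single female, with 4 females per clone. The wild type (W, labelled F +/+) is a single laboratory clone, from which all 3 mutant clones were made by CRISPR-Cas9 editing of tryptophan hydroxylase (TRH), the rate-limiting enzyme of serotonin synthesis. T+ (labelled Clone 13 +/-) carries the mutation on one allele, and clone 16 and clone 17 (both labelled -/-) carry it on both. Each mutant line is a single clone, and the mono-allelic genotype is represented by T+ alone, so that for T+ the genotype and the clone cannot be told apart. The labels name no agent for any group. The labels put the age at 5 days in one field and 4 days in another, whereas the methods describe adult females without their broods, taken at the end of a reproduction test.

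Phospholipases A2 cut membrane phospholipids into a free fatty acid and a lysophospholipid. One of the fatty acids they release is arachidonic acid, the substrate from which prostaglandins are made. Fatty acid elongases of the ELOVL family catalyse the condensation step that lengthens a fatty acyl chain in the endoplasmic reticulum. In mammals ELOVL4 makes very long chain fatty acids, and in insects elongases of this family take part in making the lipids of the cuticle. The gene names are those of the study's annotation and were not checked against a sequence here.

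Phospholipase A2 was well above background in all 4 W females and ELOVL4 in 3 of the 4. Both were at or near background in nearly all of the mutant females. The normalized log2 fluorescence of phospholipase A2 averaged 8.32 ± 1.04 in W (SD, 4 females in each clone), and 3.66 ± 0.033, 4.18 ± 0.936 and 4.30 ± 0.760 in T+, clone 16 and clone 17. ELOVL4 was dimmer, with 6.93 ± 0.649 in W and 3.88 ± 0.357, 4.01 ± 0.738 and 4.56 ± 1.29 in the mutant clones in the same order. The exceptions were clone 16 replicate 7, the 1 mutant female with phospholipase A2 well above background, and clone 17 replicate 3, the 1 with ELOVL4 well above background. In RNA from whole animals, fewer cells of a type and less RNA per cell cannot be told apart.

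The processed signal is the fluorescence of a spot after background correction by the scanner software, in linear units. The software marks a spot as well above background, or by a weaker criterion as positive and significant. The phospholipase A2 signal in W was 728 in replicate 3, 171 in replicate 5, 248 in replicate 7 and 423 in replicate 9. All 4 W spots were well above background, and they were 1.92 to 18.4 times the 95th percentile of their own array's negative controls. Replicates 3 and 9 were thus brighter than replicates 5 and 7, and the spread within W was wide.

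In T+ the phospholipase A2 signal was 12.2, 11.4, 11.2 and 15.9 in replicates 3, 5, 7 and 9, with neither mark on any array. In clone 16 it was 12.4, 12.7, 46.7 and 13.5 in the same replicates, and replicate 7 alone was well above background, while replicate 3 had the weaker mark. In clone 17 it was 31.8, 24.7, 11.2 and 13.5, where replicates 3 and 5 had the weaker mark and replicates 7 and 9 had neither. All 12 mutant arrays lay below all 4 W arrays, and the lowest W signal was 3.66 times the highest mutant signal. Of the mutant arrays 1 was well above background, 4 were positive and significant, and 2 exceeded the 95th percentile of their negative controls. The 8 arrays with neither mark had signals of 11.2 to 15.9, which are values at the background and have no order among themselves.

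The ELOVL4 signal in W was 221 in replicate 3, 96.9 in replicate 5, 122 in replicate 7 and 123 in replicate 9. The spot of replicate 7 was positive and significant but not well above background, and it lay at 0.946 times the negative control percentile of that array. The W females were thus closer to the background for ELOVL4 than for phospholipase A2.

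In T+ the ELOVL4 signal was 17.4, 11.5, 11.6 and 15.8 in replicates 3, 5, 7 and 9, of which replicates 3 and 7 had the weaker mark. In clone 16 it was 10.5, 12.7, 33.7 and 13.5, and replicate 7 alone had a mark, the weaker one. In clone 17 it was 78.1, 11.9, 11.2 and 22.9, with replicate 3 well above background and replicate 9 positive and significant. All 12 mutant signals were below the 4 W signals, but the lowest W signal was only 1.24 times the highest mutant signal. After normalization clone 17 replicate 3, at 6.38, lay above W replicate 7, at 6.23, so that the W and clone 17 groups overlapped. For 1.8% of the 17270 probes with a value on every array, all 4 clone 17 arrays were below W.

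**Figure D1:**
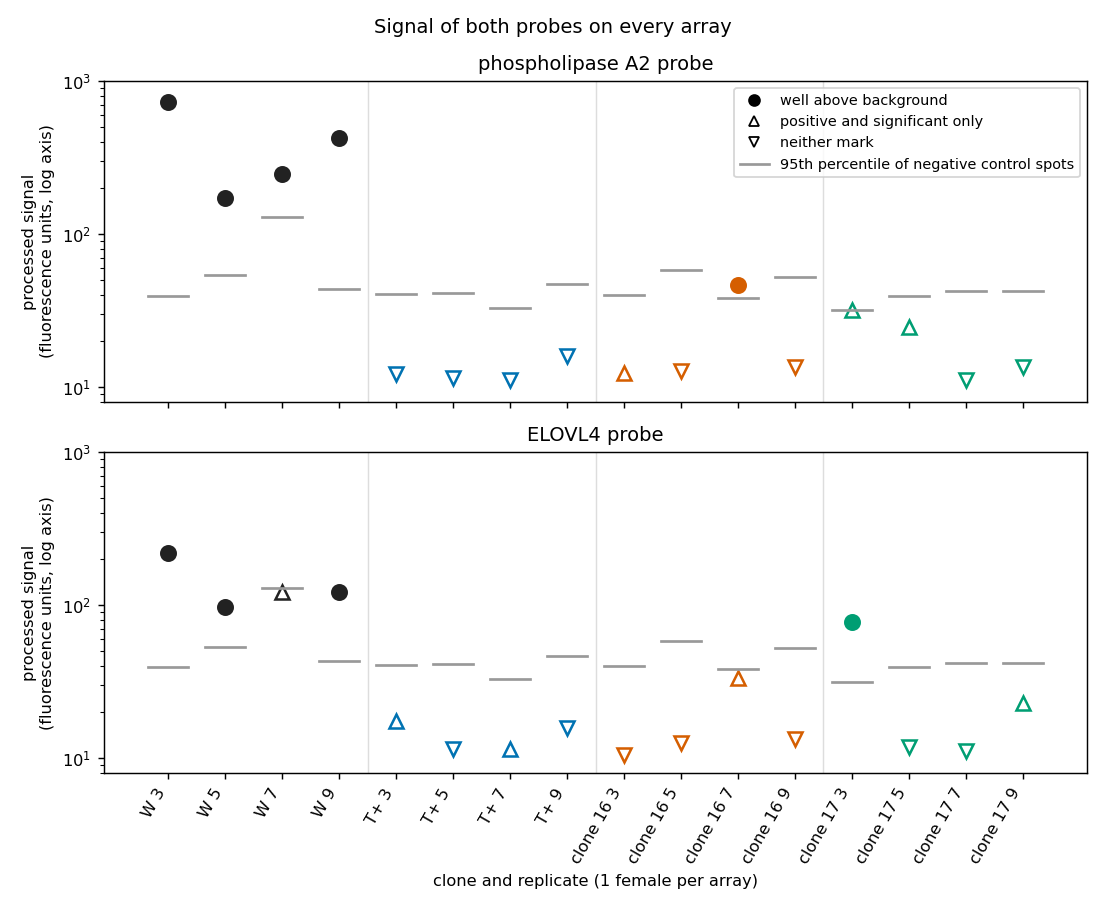
Processed signal in fluorescence units on a log axis for both probes on each of the 16 arrays, with one point per female, the symbol giving the mark of the scanner software and the grey bar the 95th percentile of that array's negative control spots. Filled circles outside W are clone 16 replicate 7 for phospholipase A2 (46.7) and clone 17 replicate 3 for ELOVL4 (78.1).

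W replicate 7 stood apart from the other libraries. Its negative control percentile was 129, against 31.8 to 58.6 on the other 15 arrays, and 9887 of its probes were well above background, against 11211 to 14667. Its header is missing, and its spot coordinates place it at the fourth position of a slide. The W replicates 3, 5 and 9 were all at position 1, and so was 1 mutant array, clone 17 replicate 7. The median local background was 35 to 37 on these 4 arrays and 41 to 47 on the other 12. At position 1 both probes were at background in clone 17 replicate 7 (3.66 for each, normalized log2), where the 3 W arrays had 7.37 to 9.37 for phospholipase A2 and 6.57 to 7.66 for ELOVL4. W replicate 7, at another position, had 7.47 and 6.23. Transcripts of TRH itself were not analysed here.

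Each mutant clone was then compared with W to ask how far the 2 transcripts were reduced. The study had listed both probes as lower on these arrays, so that the direction and the p-values are not independent evidence. Both also passed the brightness filter mainly through W. Phospholipase A2 exceeded the negative control percentile on 4 W and 2 mutant arrays, and ELOVL4 on 3 W arrays and 1 mutant array. Calls required both a 1.5-fold change and an adjusted p-value under 0.05. Where no array of a clone was well above background, the difference is a bound, computed against the lowest well above background signal of each array, and is written as at least N-fold. Phospholipase A2 was at least 4.57-fold lower in T+ (log2 fold change −4.65, SE 0.532, adjusted p = 0.000954, limma). The decrease in clone 17 was at least 5.06-fold (−4.01, SE 0.532, adjusted p = 0.00355). For clone 16, in which replicate 7 was measurable, the fitted difference was −4.14 on the log2 scale (SE 0.532, adjusted p = 0.00284). It was called in all 3 clones, against a background of 1.29% of all tested probes called lower in T+, 0.839% in clone 16 and 0.388% in clone 17. The W and mutant groups did not overlap, as for 0.805% of the 17270 probes with a value on every array, in which all 12 mutant arrays were below all 4 W arrays. In clone 17 it was no longer called in a model of the clone 17 and W arrays alone (adjusted p = 0.0664) or when the position along the slide entered the model (adjusted p = 0.062).

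ELOVL4 was at least 1.75-fold lower in T+ (log2 fold change −3.05, SE 0.554, adjusted p = 0.0115, limma). This call was not made by an ANOVA followed by Dunnett's test as rerun here (adjusted p = 0.0746, ANOVA over all clones). The study, whose methods name that type of test, had listed the probe as lower in the mutants. The decrease in clone 16 was at least 2.36-fold (−2.92, SE 0.554, adjusted p = 0.0272). Both bounds use the W mean, which includes W replicate 7, whose ELOVL4 spot was not well above background. All 4 T+ arrays and all 4 clone 16 arrays lay below all 4 W arrays, which was so for 3.38% of the 17270 probes in T+ and 4.81% in clone 16. In clone 17 ELOVL4 was not called (−2.37, SE 0.554, adjusted p = 0.11), and without clone 17 replicate 3 it was called there (−2.98, adjusted p = 0.0075). That fit kept the brightness filter of all 16 arrays. ELOVL4 reached the required 4 arrays only with clone 17 replicate 3, the female also singled out for its retained signal. The call without it is thus a description and no support for a fall in clone 17. The call in clone 16 was lost when W replicate 3 or 9, or clone 16 replicate 3, 5 or 9, was left out (log2 fold changes −2.67 to −2.81, adjusted p = 0.0667 to 0.115), and 3 further alternatives also ended it (adjusted p = 0.0528 to 0.0761). The fitted fold changes of both probes rest on mutant arrays at background, so that their size is not a measured ratio.

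Between the mutant clones neither probe differed beyond the spread between animals. Phospholipase A2 in the mean of clone 16 and clone 17 against T+ had a log2 fold change of 0.58 (95% interval −0.41 to 1.57, adjusted p = 0.659, limma), and in clone 17 against clone 16 one of 0.13 (−1.02 to 1.27, adjusted p = 0.968). For ELOVL4 these were 0.41 (−0.63 to 1.44, adjusted p = 0.781) and 0.55 (−0.64 to 1.74, adjusted p = 0.75). Most of the arrays compared held only a bound. In these comparisons 0.0521% and 0.00579% of all tested probes were called.

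**Figure D2:**
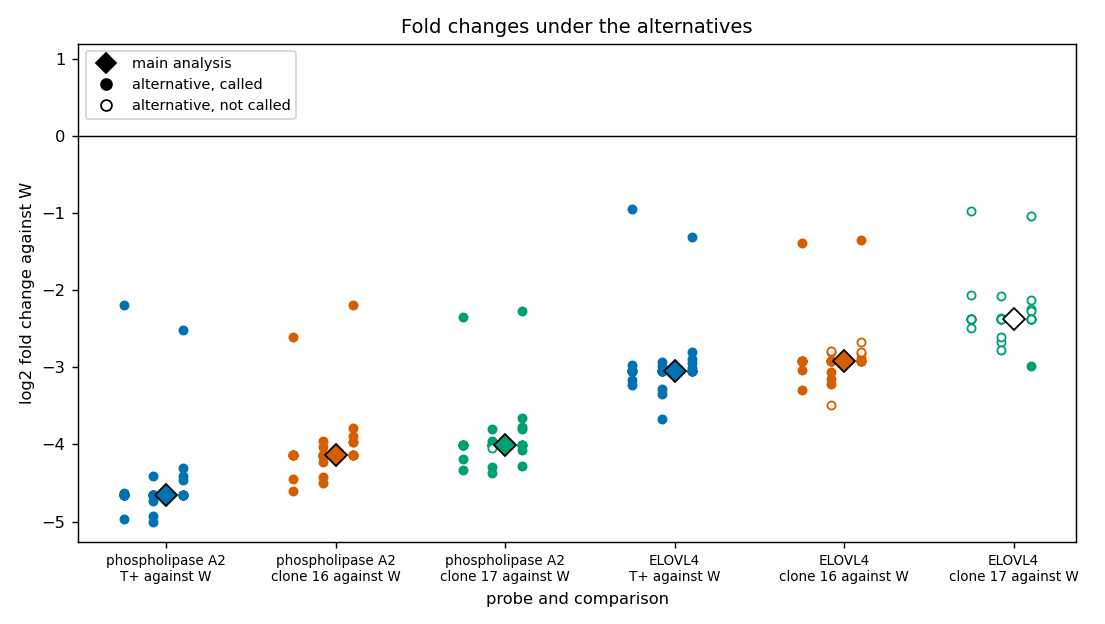
Log2 fold change of each probe in each mutant clone against W (vertical axis) in the main analysis, shown as a diamond, and under each of 31 alternatives, shown as circles that are filled where the probe was called. All values are below 0, and the open circles lie mainly under ELOVL4 in clone 17, which was called in 1 alternative.

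Clone 16 replicate 7 was the mutant female in which phospholipase A2 was best retained. Its normalized log2 value was 5.57, against 3.63 to 3.86 in the other 3 females of the clone (difference from their mean 1.86), and it amounted to 14.9% of the geometric mean of W. It lay just over the lowest well above background level of its own array, 5.49. On the other 3 clone 16 arrays that level was 5.68 to 5.85, so that a spot of 5.57 would not have been marked there, and no bound on the difference can be given. ELOVL4 in replicate 7 was 5.12 against 3.62 to 3.65 in the others (difference from their mean 1.48), which was 28.5% of the W geometric mean and below the level well above background.

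Clone 17 replicate 3 was the other mutant female with retained signal, and here ELOVL4, not phospholipase A2, was the probe well above background. ELOVL4 reached 68.5% of the W geometric mean, whereas phospholipase A2, at 5.09 normalized log2, was at 10.7%. Clone 17 replicate 5 had phospholipase A2 at 8.83% of W and ELOVL4 at background. The remaining mutant females had 3.86% to 4.57% for phospholipase A2 and 10.1% to 19.4% for ELOVL4, which are the values of spots at or near background.

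**Figure D3:**
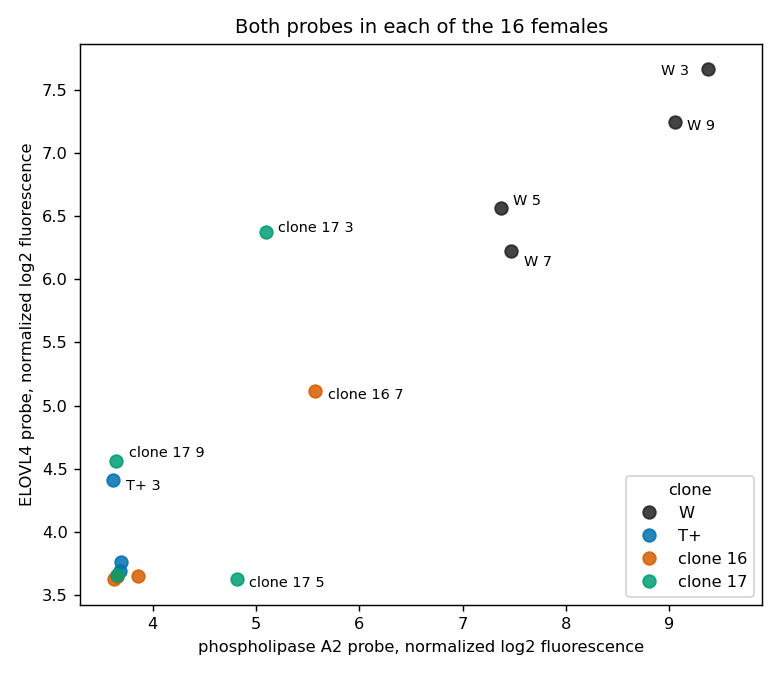
Normalized log2 fluorescence of the phospholipase A2 probe (horizontal axis) and of the ELOVL4 probe (vertical axis) in each of the 16 females, coloured by clone. The 4 W females lie at the upper right, most mutant females lie together at background near 3.66 on both axes, and clone 16 replicate 7 and clone 17 replicate 3 lie between.

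Over the 16 females the normalized values of both probes had a Pearson r of 0.924 and a Spearman rho of 0.659, and over the 12 mutant females r was 0.664. These are descriptions only, since the r over all females is mostly the gap between W and the mutants, and the r over the mutants rests on the few females above background. Among 17269 other probes, ELOVL4 ranked at place 40 in likeness to phospholipase A2, and phospholipase A2 at place 27 in likeness to ELOVL4. An r of at least 0.9 was reached by 56 probes for phospholipase A2 and by 42 for ELOVL4. The lists of the 50 most alike probes of each had 24 in common.

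The probe most like phospholipase A2 was CUST_27401_PI429715507 (gene model Dapma7bEVm001223, with no gene name), with r = 0.993 over the 16 females and 0.983 over the 12 mutants. It was bright in W (mean normalized log2 11.01) and had log2 fold changes of −7.23, −6.18 and −6.14 against W in T+, clone 16 and clone 17. It was well above background in all W females, clone 16 replicate 7 and clone 17 replicate 3, and in no other. Next came CUST_134559_PI429715507 (Dapma7bEVm009022, with no gene name), with r = 0.993 and 0.939 and the same marks as phospholipase A2 on every array.

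Of the probes with a gene name, those most like phospholipase A2 were 2 of cuticle proteins, 1 of a nose resistant to fluoxetine protein, 1 of hydroxymethylglutaryl-CoA (HMG-CoA) synthase and 1 listed with the cuticle. The cuticular protein 72 precursor (CUST_67490_PI429715507) had r = 0.978, and 0.95 over the mutants. Its normalized log2 level was 10.94, 9.10, 8.71 and 11.06 in W replicates 3, 5, 7 and 9, with the same pair of brighter animals as phospholipase A2. In the mutants it was 7.28 in clone 16 replicate 7, 7.63 in clone 17 replicate 3 and 5.76 in clone 17 replicate 5, and 3.70 to 4.68 in the other 9. Cuticular protein 49Ag (CUST_102541_PI429715507), at r = 0.96, and HMG-CoA synthase 1 (CUST_7515_PI429715507), at r = 0.934, were well above background on all 16 arrays, so that their fall in the mutants was measured on both sides. The nose resistant to fluoxetine 6-like probe (CUST_143252_PI429715507, r = 0.957), of a membrane protein family first known from the nematode *Caenorhabditis elegans*, was well above background in the 4 W females only. CUST_161118_PI429715507, at r = 0.934, carries a conserved domain name (DNA polymerase III subunits gamma and tau) and stands in the study's cuticle list.

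ELOVL4 was followed most closely by CUST_38390_PI429715507 (Dapma7bEVm004379, r = 0.98, and 0.935 over the mutants) and CUST_65770_PI429715507 (Dapma7bEVm018603, r = 0.975 and 0.931), which have no gene name. The closest probe with a name was a cuticular protein analogous to peritrophins 1-F (CUST_18986_PI429715507), with r = 0.972, and 0.936 over the mutants. Then came the nose resistant to fluoxetine 6-like probe CUST_143252_PI429715507 (r = 0.96), CUST_161118_PI429715507 (r = 0.951), the cuticular protein 72 precursor CUST_67490_PI429715507 (r = 0.951) and phospholipase A2 itself. Cuticle proteins, which build the exoskeleton that a water flea renews at each molt, were thus among the closest named probes of both enzymes. The named probes are a choice of the study, made on these arrays for differing from W, and 10 and 9 of the 50 most alike probes had a name, so that the names do not describe the whole list.

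The 50 probes most like phospholipase A2 were all called lower in at least 1 clone, and 35 of them in all 3. For ELOVL4, 45 of 50 were called lower in at least 1 clone and 14 in all 3. Of all tested probes 1.61% were called lower in at least 1 clone and 0.278% in all 3, but the 50 were chosen for likeness to a probe that is high in W, which largely fixes their direction. Over the 12 mutants alone, r ranged from 0.244 to 0.983 (median 0.758) among the 50 probes of phospholipase A2 and from 0.534 to 0.936 (median 0.788) among those of ELOVL4. The median r of all probes with phospholipase A2 and ELOVL4 was 0.037 and 0.009 over the 12 mutants, and −0.079 and −0.083 over the 16 females.

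The marks of the scanner software gave a second view of the pattern. Exactly the marks of phospholipase A2, on all 4 W arrays and clone 16 replicate 7, were shared by 12 other probes, of which 1 had a name, a cuticular protein analogous to peritrophins 3-D2 (CUST_87769_PI429715507). Exactly those of ELOVL4 were shared by 7, of which 1, CUST_161118_PI429715507, had a name. Of 8669 probes well above background in every W female, 2 were so in no mutant and 16 in a single mutant. Of these 16, 13 were retained in clone 16 replicate 7, 3 in clone 17 replicate 3 and 0 in any of the other 10 mutant females. The 13 are phospholipase A2 itself and the 12 probes with its marks. Clone 16 replicate 7 also had the lowest well above background level of all arrays (5.49, normalized log2) and the most marked probes (14667). The part of this in the count was not tested.

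The other lipid probes that the study named give a setting for the 2 enzymes. They are the 16 probes listed under 4 lipid terms, of which 15 were tested, and the study chose them on these arrays, so that their direction is not independent evidence. Some of them share a gene model, so that the counts are of probes and not of genes. In T+ 10 of 15 were called lower, in clone 16 5 and in clone 17 3 (of all tested probes 1.29%, 0.839% and 0.388% were). In no clone was any of them called higher (of all tested probes 0.318%, 0.127% and 0.0347% were). Their median log2 fold change was −1.39, −0.99 and −0.95, against 0.058, 0.106 and 0.065 for all tested probes. The T+ count was 3 by that ANOVA. The clone 16 count was 0 without W replicate 9 or clone 16 replicate 3 or 9, 1 without W replicate 3 or clone 16 replicate 5, 2 without W replicate 5 and 3 without T+ replicate 3, 7 or 9, and the clone 17 count was 6 without clone 17 replicate 5 and 0 when only the clones compared were fitted.

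Of the enzymes that lengthen, desaturate or hydroxylate fatty acids, 3 of 5 probes were called lower in T+, 1 in clone 16 and 0 in clone 17 (of all tested probes 1.29%, 0.839% and 0.388% were). Among those called in T+, CUST_82991_PI429715507 and CUST_82992_PI429715507 belong to 1 gene model (Dapma7bEVm010304) and are thus not independent of each other. Another elongase probe, of an elongation of very long chain fatty acids protein 4-like isoform (CUST_38871_PI429715507), was bright and well above background on every array. Its normalized log2 level ranged from 9.72 to 9.85 in W, and from 8.92 to 9.45, 9.02 to 9.58 and 9.39 to 9.82 in T+, clone 16 and clone 17. It did not pass the test in any clone (log2 fold changes −0.59, −0.50 and −0.24, adjusted p = 0.0703, 0.136 and 0.696, limma), although all T+ and clone 16 females were below all W females. The ELOVL4 probe was at or near background in nearly all mutant females, whereas this other elongase probe was measured in every female. The sizes of their changes can therefore not be set against each other, and the difference between the probes was not tested.

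A fatty acid desaturase (CUST_85215_PI429715507), which introduces double bonds into fatty acids, was lower in T+ and clone 16 (log2 fold changes −1.19 and −1.33, adjusted p = 0.0158 and 0.0167, limma) and had −0.80 in clone 17 (adjusted p = 0.226). The T+ call was lost without T+ replicate 7, and the clone 16 call without W replicate 9 or clone 16 replicate 3 or 9. Of the 3 probes named fatty acid hydroxylase domain containing 2, CUST_82991_PI429715507 and CUST_82992_PI429715507, of the same gene model, were called lower in T+ (−3.26 and −3.39). These calls were lost by the ANOVA alone of the 31 alternatives. In clone 16 the same probes had −1.40 and −1.35 and in clone 17 −2.13 and −2.01, and neither was called there. The third, CUST_103899_PI429715507, had log2 fold changes of 1.95, −0.87 and 1.43 in the order T+, clone 16, clone 17, and passed the test in none of them (adjusted p = 0.155, 0.506 and 0.523, limma).

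HMG-CoA synthase, which condenses acetyl-CoA and acetoacetyl-CoA at the head of the mevalonate pathway, was called lower with all 3 tested probes of the list in all 3 clones. The 3 probes belong to 1 gene model (Dapma7bEVm000199) and are thus not independent of each other. In T+ they kept their calls under all 31 alternatives. In clone 16 CUST_72169_PI429715507 was called in 16 of 31, CUST_7515_PI429715507 in 22 and CUST_87067_PI429715507 in 24, and all 3 calls were lost with 75th percentile scaling, with position as a block or without W replicate 3 or 9 or clone 16 replicate 3, 5 or 9. In clone 17 all 3 were lost when only the clone 17 and W arrays were fitted, and CUST_7515_PI429715507 also with position as a block. CUST_72169_PI429715507 had 9.96 to 10.06 in W, against 7.86 to 8.60 in T+, 8.80 to 9.12 in clone 16 and 8.10 to 9.01 in clone 17. It was lower on all 12 mutant arrays than on all 4 W arrays, as were 0.805% of the 17270 probes with a value on every array. Against W it had a log2 fold change of −1.89 in T+ (adjusted p = 0.000574, limma), −0.99 in clone 16 (adjusted p = 0.039) and −1.53 in clone 17 (adjusted p = 0.00355). In contrast to phospholipase A2 and ELOVL4, this transcript remained well above background in every mutant female. Another probe of the gene model, CUST_5069_PI429715507, which is not on the lipid list and was singled out after its values were seen, had −1.85, −1.06 and −1.61 and was called lower in all 3 clones.

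In ether lipid synthesis, alkylglycerone phosphate synthase (CUST_50048_PI429715507) was lower in T+ and clone 16 (−0.90 and −0.86, adjusted p = 0.0257 and 0.047, limma). These calls were made in 22 and 13 of 31 alternatives, and with an array left out in 12 and 3 of 16. The T+ call was lost without W replicate 5 or 9 or T+ replicate 3 or 7, and the clone 16 call without any 1 of the W or clone 16 arrays, T+ replicate 3, 7 or 9, or clone 17 replicate 7 or 9. The other probe of this step, CUST_24996_PI429715507, had −0.75, −0.81 and −0.42 and did not pass (adjusted p = 0.0535, 0.0509 and 0.542). Of the 5 remaining probes of the list 3 were called lower in T+, and 0 in clone 16 and clone 17. These 3 carry names of an adhesion molecule, contactin associated protein 1 (CUST_118974_PI429715507, log2 fold change −2.59), of a matrix protein, transforming growth factor beta-induced (CUST_1758_PI429715507, at least 3.54-fold lower), and of a galactosyltransferase (CUST_147640_PI429715507, −1.31). The call of CUST_1758_PI429715507 was lost without W replicate 5 or 7 or T+ replicate 3, 7 or 9.

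**Figure D4:**
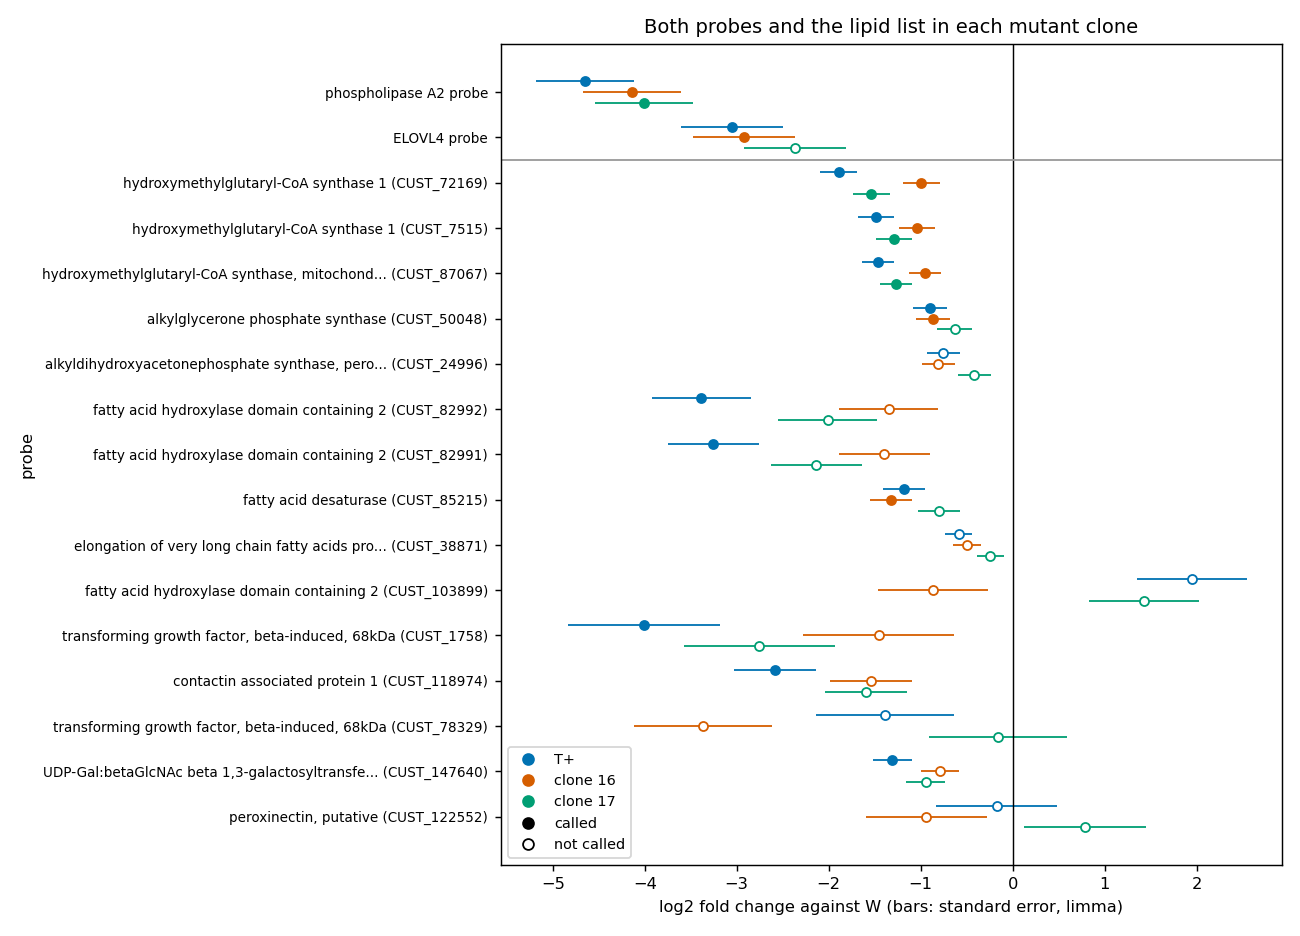
Log2 fold change against W (horizontal axis, bars are standard errors from limma) of both probes and of the 15 tested probes of the lipid list in each mutant clone, with filled points for called probes. The 3 HMG-CoA synthase probes, measured in every female, are called in every clone, whereas the points of the 2 probes at the top rest on mutant spots at background and their sizes cannot be set against the others.

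The females with retained signal were compared over the lipid list and over the study's cuticle list, whose 11 probes were also chosen on these arrays. Of these 8 were called lower in T+, 8 in clone 16 and 3 in clone 17 (of all tested probes 1.29%, 0.839% and 0.388% were). The median of the 11 cuticle list probes, as the log2 difference from the W mean, was −2.01 in clone 16 replicate 7, −2.32 in clone 17 replicate 3 and −3.50 in clone 17 replicate 5, and −4.70 to −5.84 in the other 9 mutant females. For the lipid list it was −0.67, −0.58 and −0.81 in these 3 females and −0.89 to −1.48 in the others. Within clone 16, replicate 7 had the highest value for 12 of 15 lipid probes and for 11 of 11 cuticle probes, against 24.7% of all probes. Of all 12 mutant females, clone 17 replicate 3 was highest for 7 of 15 lipid and 7 of 11 cuticle probes (6.12% of all probes), and clone 16 replicate 7 for 6 and 4 (7.51%). Clone 17 replicate 5 was highest for 1 and 0, against 15.1% of all probes. By the list medians these 3 females, which had the highest phospholipase A2 values of the mutants, were nearest to W, but by the counts of highest values clone 17 replicate 5 was not. Clone 16 replicate 7 also had the most probes well above background of all arrays, 14667, whereas clone 17 replicate 3 had 13129. Their part in the retained signal was not tested. The W females 3 and 9, in which both enzymes were brightest, had cuticle list medians of 0.81 and 0.49, against −0.42 and −0.56 in W females 5 and 7.

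**Figure D5:**
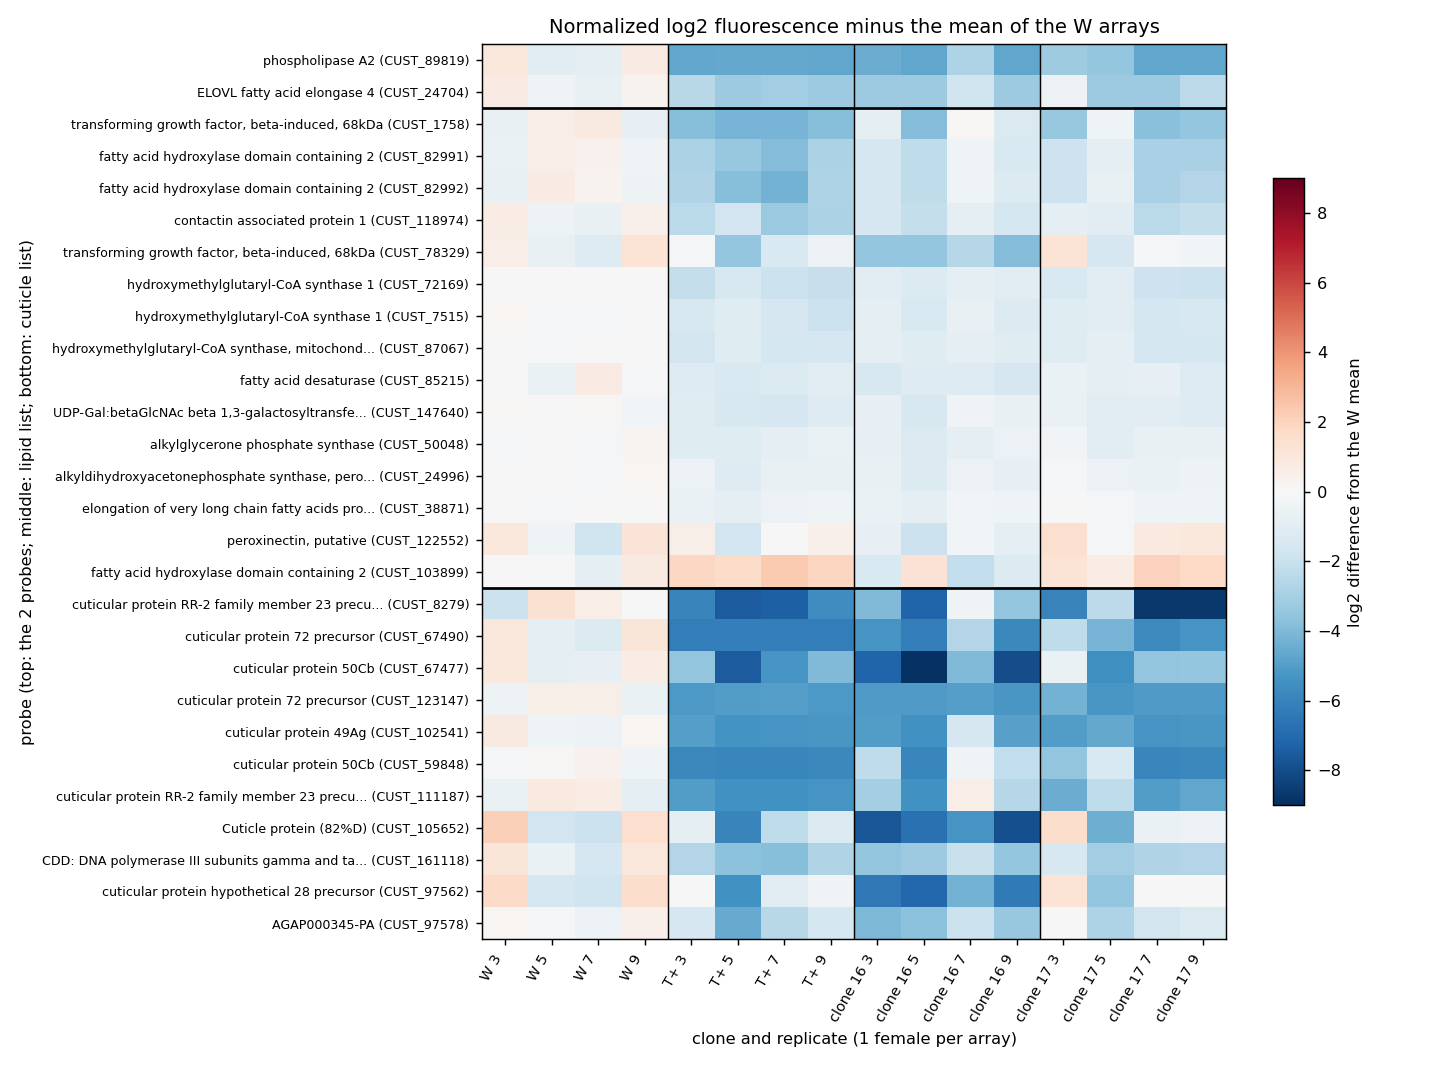
Log2 difference of each probe (rows) from its mean in W on each of the 16 arrays (columns), by colour, for the 2 probes at the top, the 15 tested lipid list probes and the 11 cuticle list probes. Clone 16 replicate 7 and clone 17 replicate 3 are paler than the other females of their clones in many rows, with cuticle list medians of −2.01 and −2.32.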

How the data were processed

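For each array the authors deposited the spot intensities of Agilent Feature Extraction 10.5.1.1 (the version of those headers that are present), with marks for spots over background and outlier spots. They also deposited normalized log2 values, which were within 0.05 of the quantile normalized values computed here, centred on each probe's median, for 99.9% of values. Here the processed signals, of which none was saturated, were transformed to log2 (floor 1, reached by no spot), outlier spots were set to missing (49 to 122 per array), repeated spots were averaged and the quantile method was used between arrays. Tests covered probes brighter, on 4 or more arrays, than 95% of that array's 2840 negative controls. limma 3.58.1 in R 4.3.3 fitted one model to the 16 arrays, with 5 contrasts, two-sided tests and Benjamini-Hochberg adjustment over 17286 probes. Bounds used the mean of normalized log2 values and, per array, the higher of the lowest well above background signal and the probe's own. Likeness was Pearson r over the 16 arrays, without a test. Named were both probes, the 5 most alike probes with a gene name and the 2 without, those of equal marks with a name, and the lipid list. The gene names and lists were taken from the study's supplement.

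The probes and lists were chosen with earlier results of these data known. Both probes were on the study's lists of lower probes, made from these arrays. The procedure was tested on simulated data. The alternatives were 75th percentile scaling, normexp background correction (offset 50), the deposited values, no or another background filter, outlier spots kept, signals floored at the background limit, one-way ANOVA with Dunnett's test as in the methods (mvtnorm 1.3.3), only the clones compared, slide, position or replicate number as a block, array weights, a robust variance trend, and each array left out. The number of arrays limits the precision.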

Additional observations from a re-analysis of the deposited data

Results flagged for a closer look

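In 3 of the 8 groups of 4 females, 1 female lay far from the other 3 of its clone (the gap to the nearest divided by the range exceeded Dixon's 95% critical value for 4 samples, which chance exceeds in about 1 group in 20). For phospholipase A2 this was clone 16 replicate 7, with a normalized log2 value of 5.57 (gap over range 0.878). For ELOVL4 it was the same female, with 5.12 (0.985), and T+ replicate 3, with 4.41 (0.851). The other values of these groups were at background, where the spread between arrays is narrow, and both ELOVL4 values were themselves not well above background. Clone 16 replicate 7 had been singled out beforehand for its retained signal. The rate expected by chance therefore does not apply to it, and its flags are descriptions only.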

How the results depend on the processing

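Phospholipase A2 was called in T+ and clone 16 under all 31 alternatives and in clone 17 under 29, and its log2 fold changes stayed between −5.01 and −2.19. In clone 17 it was −4.01 (adjusted p = 0.0664) with only the arrays of the clones compared, and −4.05 (0.062) with the position along the slide as a block. ELOVL4 was called in T+ under 30 alternatives, the exception being the ANOVA with Dunnett's test (−3.05, 0.0746). The p-value given for the ANOVA is that of the test over all clones and is the same for each comparison. In clone 16 ELOVL4 was called under 23 alternatives. The call was lost without a background filter (−2.92, 0.0761), by the ANOVA (−2.92, 0.0746) and with position as a block (−3.49, 0.0528). ELOVL4 was also not called in 5 of 16 fits that left out an array (range over the 16 fits −3.29 to −2.67). In clone 17 it was called only without replicate 3 (range over arrays left out −2.98 to −2.06), the array with which ELOVL4 just passed the brightness filter. The difference of clone 17 from clone 16 changed sign for phospholipase A2 under normexp (−0.084), array weights (−0.11) and some arrays left out (−0.14 to 0.59), and for ELOVL4 without clone 17 replicate 3 (−0.061 to 0.92). With dim signals raised to the limit of each array, the bi-allelic clones against T+ gave −0.28 and −0.23 for phospholipase A2 and ELOVL4, and clone 16 replicate 7 minus the others gave −0.18 and −0.27. By construction this setting gives each array its own limit, and that of replicate 7 was the lowest of the clone. Under normexp the latter differences were 0.645 and 0.64. No difference between mutant clones was called under any alternative.

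The lipid list counts of 10, 5 and 3 (T+, clone 16, clone 17) became 3 in T+ by the ANOVA. In clone 16 they became 1 with 75th percentile scaling, 2 without a filter, 3 by the ANOVA, 3 with slide as a block (with W replicate 7 left out or placed on the slide with a free place) and 3 with position as a block. In clone 17 they became 0 with only the clones compared and 8 with array weights. With an array left out they were 7 to 11, 0 to 7 and 3 to 6, and in clone 16 they were 0 without W replicate 9 or clone 16 replicate 3 or 9. Of the 50 most alike probes of phospholipase A2 and ELOVL4, 22 and 19 remained with dim signals at the limit, 19 and 32 over the mutants alone and 21 and 14 by Spearman's rho. The share of all probes called ranged from 0.34% to 7.78% in T+, 0.126% to 7.1% in clone 16 and 0.0953% to 4.58% in clone 17, lowest without a filter and highest with array weights. Where not stated, the cause was not tested.

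The replicate numbers were not treated as pairs in the main model. Of 24 pairs with the same number 14 had correlated deviations above 0.1 (mean r 0.167, range −0.346 to 0.795, others −0.041), and 9 of 16 arrays correlated best with their own number. Females with the same number were thus more alike on average, though not in every pair. The source of this likeness was not tested. With the replicate number as a block phospholipase A2 had adjusted p = 0.00525, 0.00813 and 0.0176 and ELOVL4 0.0167, 0.0179 and 0.111 in T+, clone 16 and clone 17, with no call changed. The position and the placed slide as blocks were added after seeing the data. Signal over background limits what the mutant arrays can show, since most of their spots for both probes give only a bound, and W replicate 7 has the highest background.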
